A study of Homo sapiens with 4 samples.

Results

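HMOX1, the haem-degrading enzyme haem oxygenase 1, and 9 other human genes known as targets of the transcription factor NRF2 were measured by single-cell RNA sequencing of PANC-1 tumours. The 10 genes (HMOX1, NQO1, GCLM, GCLC, TXNRD1, SRXN1, SLC7A11, ME1, FTL and FTH1) were chosen by name from the 36601 human genes counted, HMOX1 because its level was already known to differ between these libraries. Its differences are therefore given as a description. PANC-1 is an established human pancreatic cancer cell line, here grown under the skin of nude mice, which lack a thymus and most T cells but keep macrophages and fibroblasts. There was 1 tumour library for each of 4 groups: a control, agrimoniin (a plant ellagitannin), erlotinib (an inhibitor of the EGF receptor kinase), and both agents together, called the combination below. The sample labels give erlotinib, while the design text of the series names "cyranin" in its place; the labels are followed here. Doses, treatment times, ages, and the number of mice behind each library are not given in the sources used here.

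NRF2, encoded by NFE2L2, is held at a low level in unstressed cells by KEAP1, which hands it to a CUL3 ubiquitin ligase for degradation. When electrophiles or oxidants modify KEAP1, NRF2 accumulates, pairs with a small MAF protein and binds antioxidant response elements near genes for glutathione synthesis, thioredoxin reduction, NADPH supply and iron storage. HMOX1 is also held down by the haem-sensing repressor BACH1 and can be induced by haem, heat and other stresses, so it need not move with the other targets.

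The antioxidant response element is the sequence feature by which these genes are grouped, so its core, TGACNNNGC, was searched on both strands of the RefSeq promoter windows of GRCh38.p14 (250 bases before to 50 bases after each start). Windows were held for 7 of the 10 members, and those for HMOX1, SLC7A11 and FTH1 were not. Of these 7 genes, 3 had the core before the start: GCLM, TXNRD1 (in both of its windows) and ME1. Counted by window rather than by gene, and anywhere in the window, it was also held by 13.3% of all 35116 windows. The 4 stretches below, written 5′ to 3′ on the gene's own strand with the core in capitals, are shown because GCLM, TXNRD1 and ME1 behaved differently in the comparisons that follow.
GCLM, chr1:93909431-93909494, minus strand, core 34 to 26 bases before the start and read on the opposite strand: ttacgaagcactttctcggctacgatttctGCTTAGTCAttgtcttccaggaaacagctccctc
TXNRD1 upstream start, chr12:104215650-104215718, plus strand, core 99 to 91 bases before the start: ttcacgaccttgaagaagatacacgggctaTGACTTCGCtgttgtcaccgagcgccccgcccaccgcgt
TXNRD1 downstream start, chr12:104286900-104286968, plus strand, core 102 to 94 bases before the start and read on the opposite strand: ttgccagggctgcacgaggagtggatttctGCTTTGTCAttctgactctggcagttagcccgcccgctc
ME1, chr6:83431150-83431218, minus strand, core 137 to 129 bases before the start: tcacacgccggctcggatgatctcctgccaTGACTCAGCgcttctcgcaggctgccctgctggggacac
A match is a run of letters and not a measured binding site, and the absence of a match says only that the letters are not in that window.

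Every one of the 1056 barcodes held both human and mouse molecules (unique molecular identifiers, UMIs), the human share running from 28.2% to 94.1%, so the human UMIs of a barcode are called its human part. Whether a barcode holds 1 cell cannot be told from these files, and every value per barcode or part below carries that limit. With at least 500 human UMIs, at least 250 human genes and at most 25% mitochondrial UMIs, 193 control, 283 agrimoniin, 292 erlotinib and 245 combination parts were kept. They held 2420470 to 3775711 human UMIs per library, with medians of 11586 to 12653 per part and median mitochondrial shares of 8.97% to 10.1%. The median human share was lowest in control, at 68.5%, and highest in the combination, at 79.6%. Levels are given as CPM, counts per 1000000 human UMIs, after the kept human parts of each library had been added up. With 1 library per group there is no replicate spread and no test of treatment: all intervals below are exact 95% intervals for counting error only. Of the tumour markers, VIM stood at 5609 to 6272 CPM and KRT8 at 36.0 to 49.2 CPM, while the keratins KRT7 and KRT19 were near or at 0.

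HMOX1 (chromosome 22, 35380361 to 35394214 on GRCh38) opens haem and releases iron, carbon monoxide and biliverdin. In control it stood at 90.9 CPM (interval 79.3 to 104, from 220 UMIs). It was at 50.9 CPM with agrimoniin (43.9 to 58.8, 188 UMIs), at 40.3 CPM with erlotinib (34.1 to 47.2, 152 UMIs) and at 25.1 CPM in the combination (19.8 to 31.3, 78 UMIs). Control was highest and the combination lowest, and only the intervals of the single agents overlapped. The ratio to control was 0.560 with agrimoniin (0.459 to 0.684), 0.443 with erlotinib (0.358 to 0.547) and 0.276 in the combination (0.210 to 0.359). Between neighbours in the order, erlotinib against agrimoniin gave 0.790 (0.634 to 0.984), near its bound of 1, and the combination against erlotinib 0.623 (0.468 to 0.824). The combination against agrimoniin gave 0.492 (0.373 to 0.645).

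A gene was counted as past 1.5-fold on the log2(CPM + 10) scale if its mean in the 2 libraries was at least 20 CPM. HMOX1 was then the single member past that fold below control, out of 9 measured well enough, in each of the 3 treated libraries, where 0.349% (agrimoniin), 0.547% (erlotinib) and 0.575% (combination) of all genes were lower by that much. No member was past it above control, beside 0.447%, 0.688% and 0.519% of all genes. Against agrimoniin, the combination had HMOX1 past the fold below, beside 0.195% of all genes, and against erlotinib no member, beside 0.321%. None was past it above either agent, beside 0.279% and 0.559% of all genes. These counts include the gene chosen for its difference and carry no further weight. SLC7A11 missed the 20 CPM mean against control in all 3 comparisons.

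**Figure D1:**
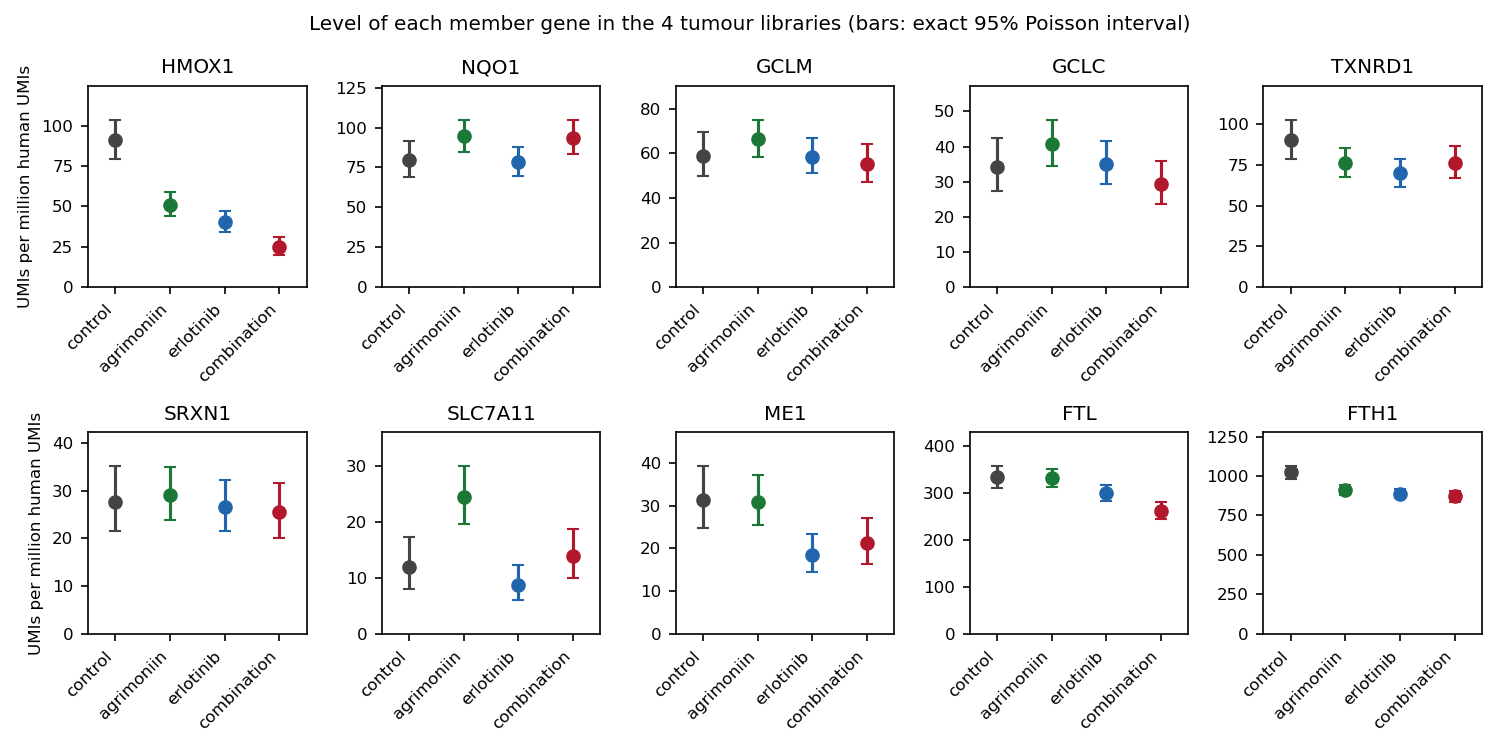
Level of each of the 10 genes in the 4 libraries, in CPM on linear axes that start at 0. Points are library values and bars their exact 95% Poisson intervals. HMOX1 steps down from 90.9 in control to 25.1 in the combination, while most other genes have overlapping intervals.

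The HMOX1 total rested on few barcodes. It was seen in 25.4% of control parts, 19.8% of agrimoniin parts, 19.5% of erlotinib parts and 15.5% of combination parts. Thinned to 3000 UMIs per part, which left out 1 erlotinib part and no other, the shares were 10.4%, 8.13%, 8.59% and 4.49% in the same order. Every barcode held human UMIs, so no cell type free of the gene could be set beside these shares. A single control barcode carried 52 HMOX1 UMIs, and 3 control barcodes together carried 115 of the 220, or 52.3%. The leading 3 barcodes held 21.8% with agrimoniin, 32.2% with erlotinib and 24.4% in the combination, where no part had more than 8 UMIs.

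Without the 3 leading barcodes of each library the log2(CPM + 10) ratio of HMOX1 to control moved from -0.73 to -0.11 with agrimoniin, from -1.01 to -0.53 with erlotinib and from -1.52 to -0.89 in the combination. Without the leading 5 it was 0.019, -0.46 and -0.78. The agrimoniin difference thus went with a handful of barcodes. Erlotinib and the combination stayed lower on every setting tried, erlotinib at -1.76 to -0.14 and the combination at -2.04 to -0.78. Dropping equal numbers of barcodes takes a larger share of the smaller control library, and those barcodes were picked by the outcome, so these values describe concentration and are no corrected estimate. The median human share of a barcode moved across the libraries opposite to HMOX1, and where human UMIs made up 75% or more of a barcode the log2 ratios were -1.11, -1.41 and -2.02.

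**Figure D2:**
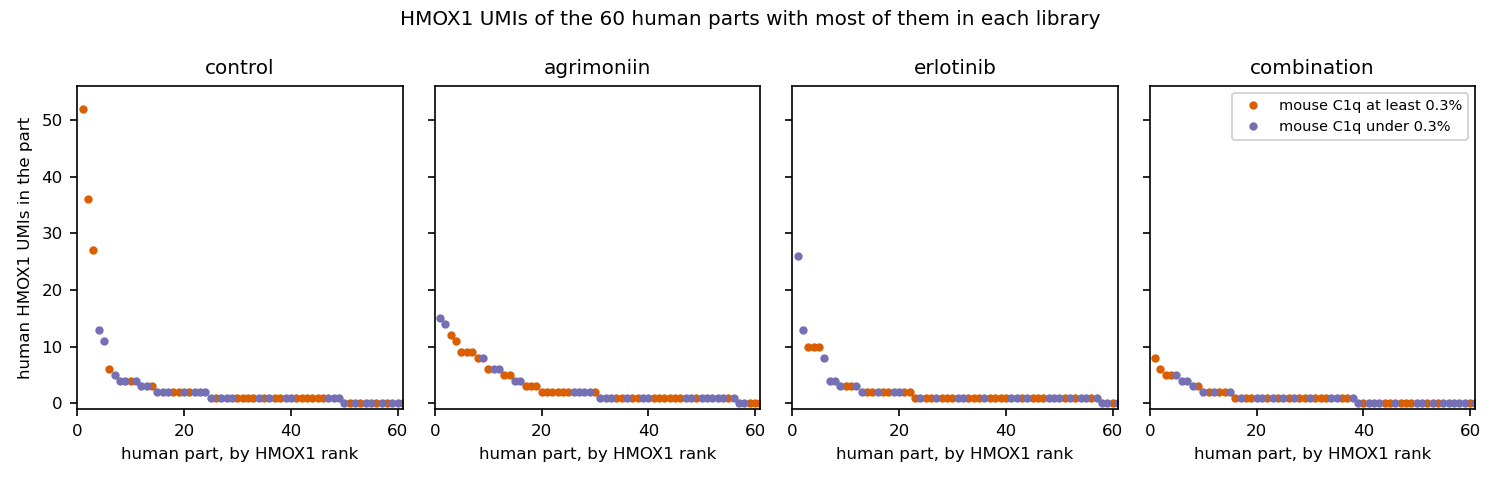
HMOX1 UMIs (linear axis) of the 60 human parts with most of them in each library, in rank order, coloured by whether mouse C1q was at least 0.3% of the mouse UMIs of the same barcode. Control has 3 orange points at 27 to 52 UMIs, and the highest combination point is at 8.

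Haem oxygenase 1 is abundant in macrophages, and the mouse host supplies them, so human HMOX1 was split by the mouse complement genes C1qa, C1qb and C1qc, which mark many tissue macrophages. Barcodes with these genes at 0.3% or more of mouse UMIs numbered 81, 133, 155 and 103 in the order control, agrimoniin, erlotinib and combination, beside 112, 150, 137 and 142 others. In control, human HMOX1 was at 140 CPM in the C1q barcodes and 52.9 CPM in the others (ratio 2.64, 1.98 to 3.55). With agrimoniin it was 63.0 and 40.3 CPM (1.56, 1.16 to 2.12), with erlotinib 34.3 and 46.9 CPM (0.730, 0.522 to 1.02), and in the combination 34.8 and 17.9 CPM (1.95, 1.21 to 3.16). Human HMOX1 was thus higher beside C1q in 3 libraries and not in the erlotinib library.

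The control ratio turned on the same 3 barcodes, all of which lay just past the C1q threshold, at 0.382% to 0.734%. Without the leading 3 barcodes of each library the ratio was 0.617 in control (0.396 to 0.944), 2.18 with agrimoniin, 1.15 with erlotinib and 1.17 in the combination. A C1q threshold of 1% gave 0.478 in control. The direction in control was therefore not stable.

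Seen from the other side, HMOX1 was lower than control in both classes of barcodes, though unevenly. Within the C1q barcodes the ratios to control were 0.451, 0.245 and 0.249 for agrimoniin, erlotinib and the combination. Within the others they were 0.762 (0.546 to 1.06), 0.887 (0.640 to 1.23) and 0.338 (0.216 to 0.520). In barcodes with little C1q, then, the combination alone had an interval below 1.

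Mouse Hmox1 did not follow human HMOX1 across the libraries. In the same barcodes it stood at 226 mouse CPM, scaled to mouse UMIs, in control, 212 with agrimoniin, 358 with erlotinib and 256 in the combination. Its ratio to control was 0.938 with agrimoniin (0.787 to 1.12), 1.58 with erlotinib (1.35 to 1.85) and 1.13 in the combination (0.939 to 1.36). Mouse Hmox1 was thus highest in the erlotinib library, where human HMOX1 was at less than its control level. By the C1q split it was at 235 and 222 in control, 323 and 132 with agrimoniin, 419 and 301 with erlotinib, and 349 and 201 in the combination, the C1q barcodes first.

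**Figure D3:**
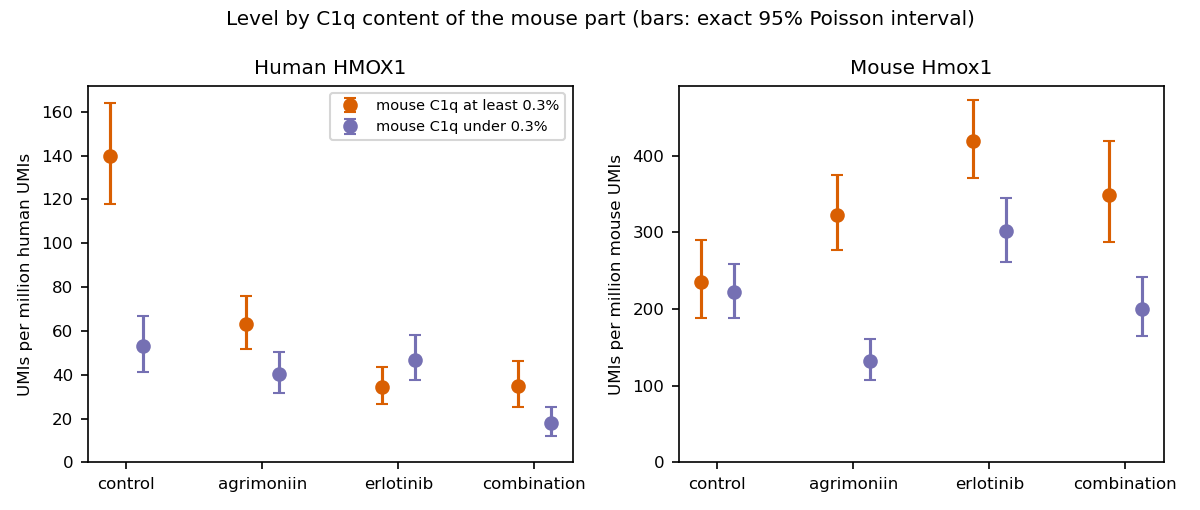
Human HMOX1 (left, CPM of human UMIs) and mouse Hmox1 (right, CPM of mouse UMIs) in barcodes with mouse C1q at or above 0.3% (orange) and below it (purple), with exact 95% Poisson intervals on linear axes from 0. The human gene runs down from 140 in the control C1q barcodes, and the mouse gene is highest in the erlotinib C1q barcodes, at 419.

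Several measurements bear on whether mouse reads were counted as human HMOX1. The 3 leading control barcodes held 115 human HMOX1 UMIs beside 2 mouse Hmox1 UMIs. Barcodes with no mouse Hmox1 UMI at all carried 48.2% of the human HMOX1 UMIs in control, 39.9% with agrimoniin, 57.2% with erlotinib and 57.7% in the combination. Within those barcodes human HMOX1 stood at 80.7, 33.2, 42.4 and 21.8 CPM, and in the barcodes with a mouse Hmox1 UMI at 103, 79.1, 37.7 and 31.5 CPM. Human HMOX1 was thus counted in quantity where no mouse transcript of the gene was seen, although agrimoniin barcodes that had both species' transcripts carried more of it.

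Human counterparts of macrophage genes gave the same measure for genes that PANC-1 should lack. Of 12 such genes, 8 (AIF1, C1QA, C1QB, C1QC, CD163, CSF1R, LYZ and TYROBP) had 0 human UMIs in the kept parts of all 4 libraries. Pooled, they had 33421 mouse UMIs, which allows up to 0.00898 human UMIs per 100 mouse ones. Gene by gene that limit ran from 0.0253 for C1QC to 6 for CD163, which had 50 mouse UMIs. The other 4 were led by CD68 with 104 human UMIs (4.55 per 100 mouse ones) and LAPTM5 with 55 (1.39 per 100). They brought the summed human level of the list to 15.7, 12.7, 10.9 and 14.5 CPM in library order. The source of their human UMIs was not tested. Summed mouse levels of the same 12 genes were 7223, 8910, 11049 and 9257 CPM, lowest in control where human HMOX1 was highest. How far reads of Hmox1 itself can cross was not tested.

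The ferritin chains repeat that measurement at higher depth. FTH1 and FTL encode the heavy and light chains of ferritin, which stores iron as haem is broken down, and mouse macrophages are rich in both. In control, mouse Fth1 was at 7874 mouse CPM in the C1q barcodes and 1553 in the others, while human FTH1 was at 1029 and 1018 CPM. Mouse Ftl1 was at 3238 and 1325, and human FTL at 359 and 312 CPM. A 5.07-fold mouse difference thus sat beside a human ratio of 1.01 (0.933 to 1.10) for the heavy chain, and over the other libraries the human ratio ran from 0.893 to 1.11.

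Across libraries, human FTH1 (chromosome 11, 61959718 to 61967660) was at 1023 CPM in control, 910 with agrimoniin, 888 with erlotinib and 871 in the combination. FTL (chromosome 19, 48965301 to 48966878) was at 333, 331, 299 and 261 CPM in that order. FTH1 was lower than control in all 3 treated libraries by small steps, with ratios of 0.889, 0.868 and 0.851, and no treated interval reached that of control. In the few barcodes without a mouse Fth1 UMI (5 in control, 10 with agrimoniin, 17 with erlotinib) the direction turned, at log2 ratios of 0.36 and 0.059 for the single agents. For FTL the ratio was 0.995 with agrimoniin, 0.899 with erlotinib and 0.785 in the combination (0.711 to 0.867). Both genes have many processed pseudogenes, so the counting could have lost or shared some of their reads.

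Glutathione synthesis begins with the ligase whose catalytic chain is GCLC and whose modifier chain is GCLM. GCLM (chromosome 1, 93885205 to 93909456) was at 59.1 CPM in control, 66.4 with agrimoniin, 58.5 with erlotinib and 55.3 in the combination. GCLC (chromosome 6, 53497341 to 53616970) was at 34.3, 40.6, 35.0 and 29.3 CPM in that order. All 4 intervals overlapped for each gene, and every ratio to control had an interval that held 1. The combination against agrimoniin gave 0.720 for GCLC (0.549 to 0.940), with an interval below 1, and 0.833 for GCLM (0.682 to 1.02).

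SLC7A11, the cystine importer that feeds glutathione synthesis (chromosome 4, 138164097 to 138242349), was the member highest above control, with agrimoniin. It was at 12.0 CPM in control (29 UMIs), 24.4 with agrimoniin (90 UMIs), 8.74 with erlotinib (33 UMIs) and 13.8 in the combination (43 UMIs). The agrimoniin library stood apart from the other 3, whose intervals overlapped, with a ratio to control of 2.04 (1.33 to 3.21). That excess lay in the C1q barcodes, where human SLC7A11 was at 38.2 CPM with agrimoniin and 9.44 in control (ratio 4.04, 2.07 to 8.82). In the others it was 12.2 and 14.0 CPM (0.877, 0.460 to 1.69). Mouse Slc7a11 in the C1q barcodes was lower with agrimoniin, at 38.8 mouse CPM, than in control, at 67.6. What part the host cells had in the human level was not tested.

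The thioredoxin arm was close to level. TXNRD1, the cytosolic thioredoxin reductase (chromosome 12, 104215779 to 104350305), was at 90.1 CPM in control, 76.1 with agrimoniin, 69.9 with erlotinib and 76.2 in the combination. Control was highest, and the erlotinib ratio of 0.776 had an interval below 1 (0.646 to 0.933). SRXN1, sulfiredoxin, which restores over-oxidised peroxiredoxins (chromosome 20, 646615 to 653370), was at 27.7, 29.0, 26.5 and 25.4 CPM, with all intervals overlapping.

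NADPH supply and quinone reduction are represented by ME1 and NQO1. ME1, the cytosolic malic enzyme (chromosome 6, 83210389 to 83431071), was at 31.4 CPM in control, 30.9 with agrimoniin, 18.5 with erlotinib and 21.2 in the combination. Both libraries with erlotinib were below both without it, with ratios to control of 0.590 (0.421 to 0.828) and 0.676 (0.479 to 0.953). NQO1, the quinone reductase often read as the marker of NRF2 activity (chromosome 16, 69706996 to 69726951), was at 79.7, 94.6, 78.4 and 93.6 CPM. Its intervals overlapped in all 4 libraries, and it was not lower in the combination, where HMOX1 was lowest. The NQO1 ratio was 1.19 in the combination against erlotinib (1.01 to 1.41) and 0.829 with erlotinib against agrimoniin (0.708 to 0.971).

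**Figure D4:**
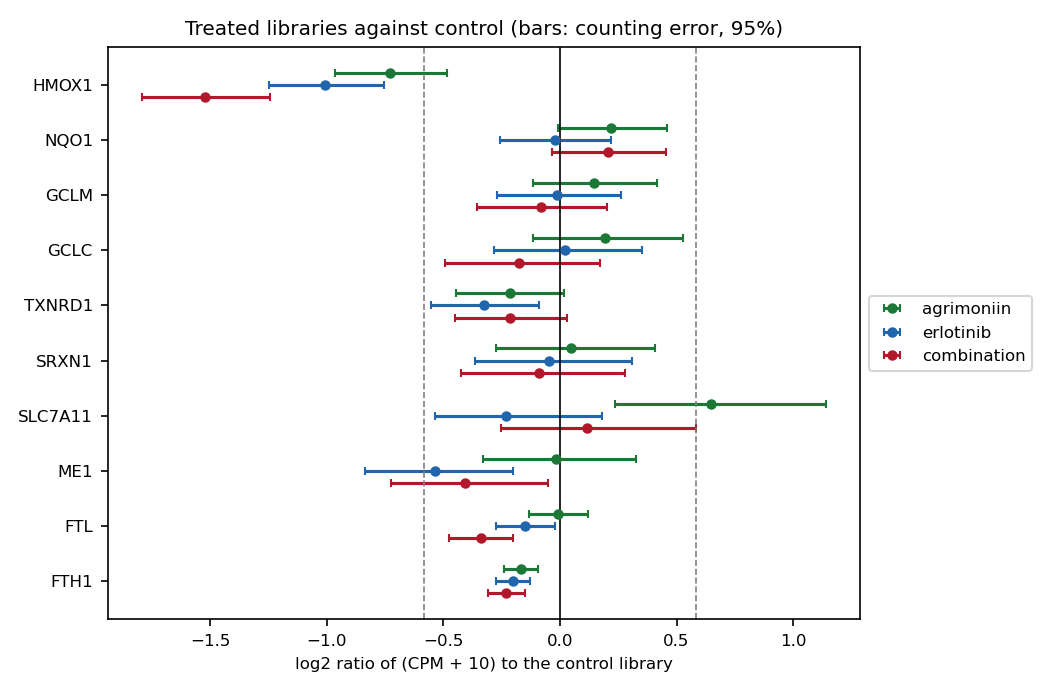
Log2 ratio of (CPM + 10) of each treated library to the one control library that all 3 share, with 95% counting intervals; dashed lines mark 1.5-fold. HMOX1 lies left of the lower line in all 3 comparisons, at -0.73, -1.01 and -1.52, and SLC7A11 with agrimoniin lies right of the upper line but is under the 20 CPM mean.

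As a group, the 10 members had a median log2 ratio to control of 0.02 with agrimoniin (5 above 0, 5 below), -0.18 with erlotinib (1 above, 9 below) and -0.19 in the combination (2 above, 8 below). Over all genes with a mean of at least 10 CPM the medians were 0.03, 0.02 and 0.02. The 3 comparisons share the control library, so they are not separate evidence of direction. The members' medians and counts here and below include HMOX1, which was chosen for its difference between these libraries. With erlotinib the members' median was -0.43 in the C1q barcodes and 0.026 in the others, so the lower median was seen on the C1q side alone. Set against agrimoniin instead, the members' median was -0.28 in the combination (1 above, 9 below) and -0.16 with erlotinib (0 above, 10 below). The combination against erlotinib gave -0.04 (4 above, 6 below). Over all genes the medians were -0.013, -0.008 and -0.005 in that order. The member whose pattern over the 4 libraries was nearest to that of HMOX1 was ME1, at a Euclidean distance of 0.81 between centred log2(CPM + 10) values, while HMOX1 itself ranged over 1.52. Among 7172 genes the 5 nearest were MTRNR2L12 (distance 0.31), ZFAND2A (0.32), EREG (0.45), MEG8 (0.56) and LRIF1 (0.56). ZFAND2A, a heat-inducible proteasome adaptor, was at 93.8, 60.2, 60.1 and 29.3 CPM, and EREG, the EGF receptor ligand epiregulin, at 88.8, 56.1, 38.4 and 39.9 CPM. Counts of MTRNR2L12 are uncertain because its sequence is close to that of the mitochondrial ribosomal RNA.

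Transcripts of the NRF2 switch were little different between libraries, while NRF2 protein, which KEAP1 controls through degradation, was not measured. NFE2L2 was at 231 CPM in control, 218 with agrimoniin, 190 with erlotinib and 235 in the combination, and erlotinib was lowest, at a ratio of 0.822 (0.735 to 0.920). KEAP1 was at 22.7, 24.9, 19.6 and 20.9 CPM, and BACH1 at 94.6, 89.1, 82.4 and 93.6 CPM, with every interval of the ratio to control holding 1. None of the 9 regulators was past 1.5-fold in either direction against control. The largest differences were MAFF (1.29, 1.06 to 1.56) and MAFG (0.756, 0.583 to 0.981) with erlotinib, small MAF partners of NRF2, and SQSTM1 (0.806, 0.741 to 0.876) in the combination, an autophagy receptor that binds KEAP1.

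Of 22 other NRF2 targets, 9 reached a mean of 20 CPM and 0 of them were past 1.5-fold against control in any treated library. Of all genes, 0.349% to 0.575% were lower and 0.447% to 0.688% higher by that much. A count of 0 in this list, the regulators or the short lists below therefore says little. Over those of at least 10 CPM the median log2 ratio was 0.15, 0.06 and 0.11. PGD, of the pentose phosphate pathway, was at a ratio of 1.28 with agrimoniin (1.06 to 1.56), and TKT, of the same pathway, at 0.683 with erlotinib (0.568 to 0.821). AKR1B10 and AKR1C1 to AKR1C3, strong NRF2 targets in many epithelial cells, were at or near 0 in these tumours.

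Haem and iron genes beside HMOX1 gave medians of 0.07, -0.01 and 0.01, with 0 of 11, 0 of 10 and 0 of 11 past 1.5-fold. UROD, a haem synthesis enzyme, was at 1.60 with agrimoniin (1.09 to 2.38) and 1.64 in the combination (1.11 to 2.46), and the transferrin receptor TFRC at 0.746 with agrimoniin (0.653 to 0.852). Glutathione enzymes, of which 9 of 10 were matched by symbol and 6 reached 20 CPM, had 0 past the fold. Of the ATF4 targets, which include amino acid genes and share SLC7A11 as a target with NRF2, 1 was past it: PHGDH, a serine synthesis enzyme, higher with agrimoniin (2.07, 1.39 to 3.16).

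Heat shock genes, whose inducers can also raise HMOX1, had the lowest medians of the 6 lists with agrimoniin and in the combination. Their median log2 ratio was -0.32 with agrimoniin (11 of 12 below 0), -0.09 with erlotinib (8 of 12 below) and -0.43 in the combination (12 of 12 below). Past 1.5-fold below control were HSPA6, an inducible HSP70, with agrimoniin (ratio 0.231, 0.177 to 0.299) and both HSPA6 (0.159, 0.114 to 0.218) and ZFAND2A (0.312, 0.242 to 0.400) in the combination. With erlotinib HSPA6 was at 1.06 (0.897 to 1.25), although HMOX1 was lower there.

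Within libraries, several of the other members were higher where HMOX1 was higher. Human parts with 3 or more HMOX1 UMIs (14 control, 19 agrimoniin, 12 erlotinib and 9 combination parts) were set against parts with none (144, 227, 235 and 207), a split made after the data were seen. GCLM stood out: its log2 ratio was 1.75 in control, 1.68 with agrimoniin, 1.66 with erlotinib and 2.03 in the combination. The mean of 1.78 ranked 1 of 7171 genes with a mean of at least 20 CPM. FTL, with a mean of 1.25, ranked 12 and FTH1, with 1.12, ranked 26. SLC7A11 was at 0.53, 1.71, 2.07 and 3.41, with too few UMIs to be ranked. In the combination, 1 barcode held 14 of the 20 SLC7A11 UMIs of the HMOX1-rich parts, and 10 of their 25 GCLM UMIs. It also held 7 mouse Hmox1 UMIs. Without the 3 leading barcodes the SLC7A11 value of the combination was 2.29.

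The remaining members had smaller and less even ratios. ME1 was at 1.19, 1.22, 1.32 and -0.18, NQO1 at 0.19, 0.84, 0.78 and 0.36, and the means of SRXN1, TXNRD1 and GCLC were 0.41, 0.40 and 0.32. Of the 8 members of at least 20 CPM, 4 (GCLM, FTL, FTH1 and ME1) were past 1.5-fold in the mean of the 4 libraries, beside 3.3% of all genes, and 0 were past it below, beside 9.75%. Above 0 in all 4 libraries were 6 of the 9, SLC7A11 included, beside 9.47% of all genes of at least 20 CPM.

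Pooled over the libraries, GCLM stood at 49.9 CPM in parts with no HMOX1 UMI, 66.0 in parts with 1 or 2, and 193 in parts with 3 or more. SLC7A11 was at 10.1, 20.1 and 72.3 CPM, FTL at 266, 379 and 679 CPM, and FTH1 at 822, 1057 and 1896 CPM. In these pooled values the 4 genes were higher at each step, and so were NQO1, GCLC, TXNRD1, SRXN1 and ME1. Pooled, the ATF4 target ATF3 and the heat shock genes ZFAND2A and DNAJB1 rose at each step too, while HSPA1A fell. The pooled stepwise rise was thus not particular to the 4 genes or to NRF2 targets. Pooling mixes libraries, however. ZFAND2A rose in control and with agrimoniin but fell with erlotinib (60.5, 59.3 and 55.7 CPM) and in the combination (30.6, 26.0 and 8.61 CPM). DNAJB1 was at 425, 426 and 216 CPM with erlotinib. The mean log2 ratio of the 4 libraries, 3 or more against none, was -0.00062 for ZFAND2A, -0.043 for DNAJB1 and 0.51 for ATF3. Nor did the stepwise rise hold for SLC7A11 in every library: the gene was at 6.85, 30.5 and 14.3 CPM in control and 7.31, 3.21 and 62.7 CPM with erlotinib. Median human UMIs of the 3 classes were 11840, 12462 and 13168, and median mitochondrial shares 9.66%, 8.73% and 8.48%.

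**Figure D5:**
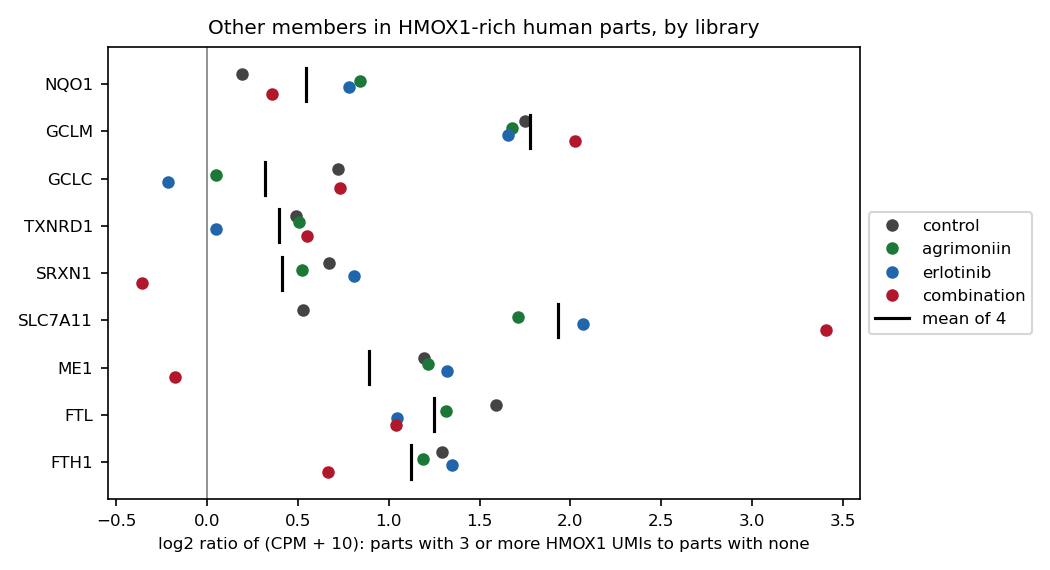
Log2 ratio of (CPM + 10) for the 9 other genes, human parts with 3 or more HMOX1 UMIs against parts with none, 1 point per library and a black bar for the mean of the 4. GCLM lies between 1.66 and 2.03 in all libraries, while ME1, SRXN1 and GCLC each have a library below 0.

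The leading barcodes carried some of this. Without the 3 parts with most HMOX1 UMIs in each library, GCLM was at 0.07 in control, 1.58 with agrimoniin, 1.21 with erlotinib and 1.40 in the combination. FTL kept a mean of 1.08 and FTH1 of 0.91, and SLC7A11 of 1.52. With parts of 1 or more HMOX1 UMIs (49, 56, 57 and 38 parts) the means were 0.90 for GCLM, 1.14 for SLC7A11, 0.74 for FTL and 0.61 for FTH1, all above 0 in each library.

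The mouse side of the same barcodes did not move in one direction. Mouse Fth1 in barcodes with 3 or more human HMOX1 UMIs against none was 3019 and 3871 mouse CPM in control, 5148 and 3476 with agrimoniin, 2202 and 3146 with erlotinib, and 3950 and 2573 in the combination. Human FTH1 was higher in all 4, including the 2 libraries where the mouse gene was lower. Mouse Hmox1 was at 195 and 243 in control, 587 and 199 with agrimoniin, 330 and 321 with erlotinib, and 1066 and 228 in the combination. Its bearing on the human values of the agrimoniin and combination libraries was not tested.

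In the HMOX1-rich parts the 9 members had a median of 0.89, with SLC7A11 included although it was under 20 CPM. The 6 other lists had lower medians, taken over their genes of at least 20 CPM only. All genes of at least 20 CPM had a median of -0.07. The members' median is therefore not on the same filter as the others. The regulators had a median of 0.41, with MAFF (0.79), MAFG (0.72) and SQSTM1 (0.59), 3 of 9, past 1.5-fold, each of them above 0 in all 4 libraries, and NFE2L2 itself at -0.05. The other NRF2 targets had a median of 0.22, with 1 past the fold, GSR (1.08), glutathione reductase. Heat shock genes had a median of -0.07, with 0 of 12 past it. The ATF4 targets had a median of 0.44, the highest of these lists, with 1 past the fold, SESN2 (1.10), a stress-induced sestrin that was above 0 in all 4 libraries. Haem and iron genes had a median of 0.01 and glutathione enzymes of -0.16, with 0 past the fold in both.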

How the data were processed

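The 4 tumour libraries, 1 per group, were counted with Cell Ranger on hg38 and mm10, per the submitters' processing notes, of a version not given in the sources used here. How the barcodes were chosen is not stated there either. The values the authors deposited are raw UMI counts per gene and barcode, over 36601 human and 32285 mouse genes. Barcodes were 27 bases long, which is not the layout of the 10x kit that the labels name, and libraries shared 0 of them. Doublets were not called, because both species were present in all barcodes.

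Counts were summed over kept human parts (at least 500 UMIs and 250 genes, at most 25% mitochondrial) and scaled to CPM per species. Ratios are of CPM, or of CPM + 10 on the log2 scale. Intervals (95%) are exact Poisson or conditional binomial and cover counting error only. Interval and ratio code was tested on simulated Poisson totals. These lack the crowding of UMIs into few barcodes seen for HMOX1, so that test does not cover its intervals. The members, the gene lists and the comparisons were chosen with earlier results of these data known. Named were the 10 members with their mouse orthologues, NFE2L2, KEAP1 and BACH1, the 2 genes of each list furthest from control with a mean of at least 20 CPM (not all of them are printed), and the 5 genes nearest to HMOX1; other names were added after their values were seen.

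Alternatives were another pseudocount, other filters, TMM scaling (edgeR 4.0.16), totals without mitochondrial genes, other sets of barcodes, means over barcodes, and other C1q thresholds. Python 3.11.15, numpy 2.4.6, scipy 1.17.1 and pandas 2.3.3 were used. Gene positions are from GENCODE 29 on GRCh38. Files of all 4 libraries were used. The result of 1 gene is not reported here.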

Additional observations from a re-analysis of the deposited data

How the results depend on the processing

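HMOX1 was below control in all 3 treated libraries under every alternative except 1. With agrimoniin (-0.73 on the log2 scale) it was at -0.32 in barcodes with C1q under 0.3% (also -0.32 without the top barcode there), -1.04 with C1q at least 0.3%, -1.11 at 75% or more human UMIs, -1.06 at 10% or less mitochondrial UMIs, -0.48 as a mean over barcodes, -1.07 in barcodes without a mouse Hmox1 UMI, -0.11 without the top 3 barcodes and 0.019, reversed, without the top 5. With erlotinib (-1.01) these were -0.14 (-0.33 without the top barcode) and -1.76 by C1q, -1.41 by human share, -1.46 by mitochondrial share, and -0.53 and -0.46 without the top 3 and 5. In the combination (-1.52) they were -1.17 (-1.09) at low C1q, -2.02, -2.04, -0.89 and -0.78, and -1.82 with a pseudocount of 1. The cause was not tested, beyond what each set of barcodes holds.

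The ratio of HMOX1 in C1q barcodes to the others was 0.478 in control and 1.11 with agrimoniin at a threshold of 1%. At 0.1% it was 2.38 in control and 1.26 with erlotinib. Without the top barcode it was 1.74 in control and 1.05 with erlotinib, and without the top 3 it was 0.617, 2.18, 1.15 and 1.17 in library order. At 75% or more human UMIs it was 0.909 with agrimoniin and 3.21 in the combination. The members' median with erlotinib was -0.43 in C1q barcodes and 0.026 in the others. Of 378 values of the 9 other members, 334 moved by less than their counting interval, 43 moved by more, and 1 that had been past 1.5-fold reversed, SLC7A11 with agrimoniin, at -0.11 at low C1q. Counting every value, 60 changed sign, FTH1 with the single agents among them (0.36 and 0.059 in barcodes without a mouse Fth1 UMI).

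Counts of genes past 1.5-fold against control were 32, 49 and 37 higher and 25, 39 and 41 lower (agrimoniin, erlotinib, combination). They were 99, 118 and 100 higher and 64, 107 and 104 lower with a pseudocount of 1. At a mean of at least 50 CPM they were 7, 17 and 11 higher and 13, 20 and 20 lower. At 10 CPM they were 48, 79 and 52 higher and 38, 69 and 49 lower, and with no filter 56, 88 and 74 higher and 56, 83 and 72 lower. Totals without mitochondrial genes gave 49 higher and 59 lower with erlotinib, turning the split of the main count (49 and 39). No paired analysis was possible because each group is 1 library.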

Other observations

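Beside GCLM, the genes of at least 20 CPM furthest above the parts without HMOX1 in the parts with 3 or more HMOX1 UMIs, named after their values were seen and given without a test, included the glucose transporter SLC2A1 (mean log2 ratio of the 4 libraries 1.58), the plasminogen activator gene PLAU (1.45), TMEM158 (1.38), the collagen prolyl hydroxylase subunit P4HA2 (1.35), IGFBP3 (1.32), COL15A1 (1.31) and the lysosomal protease CTSD (1.30). PLAU was at 0.93 in control, 1.64 with agrimoniin, 1.63 with erlotinib and 1.61 in the combination. SLC2A1 was less even, at 2.04, 0.84, 2.54 and 0.91 in the same order.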
